A study of Homo sapiens with 16 samples.

Results

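The genes described here are 40 kinetochore and mitosis genes, taken by symbol and all found among the 34228 genes of the count table. RNA-Seq was performed on the human melanoma lines 451Lu-R and 1205Lu-R, both resistant to BRAF inhibitors (BRAFi). Both were made so by months of exposure to rising doses of the BRAFi PLX4032 and kept in PLX4032 in culture. The titles of the libraries analysed here read 451Lu and 1205Lu, and that these are the resistant lines is taken from the paper. Cells of each line received 2.5 μM corin, an inhibitor of the LSD1 and HDAC enzymes of the CoREST repressor complex, or its vehicle DMSO for 24 h, and each of the 4 groups was sequenced as 2 libraries. The paper lists PLX4032 as a separate treatment over those 24 h. It took cells given PLX4032 as the control for its differentially expressed genes. Cells with neither PLX4032 nor corin were the reference in its clustered heatmap. When the PLX4032 used to keep the lines in culture was removed is not stated. Whether the libraries of a group came from separate cultures is not stated, so P values measure only the spread between these libraries. The 8 libraries from cells treated with 5 μM PLX4032, alone or with corin, were not analysed here.

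The kinetochore is the protein assembly that joins a centromere to spindle microtubules. Its inner part sits on nucleosomes that carry CENP-A, its outer part holds the microtubule-binding NDC80 complex, and the spindle assembly checkpoint delays anaphase until every kinetochore is attached. Aurora B acts with its passenger partners to correct faulty attachments, CDK1 with cyclin B drives entry into mitosis, and kinesins shape the spindle and the midzone. Most of these genes are transcribed mainly late in the cell cycle, under the MuvB complex with B-MYB and FOXM1 and through promoter elements called the CHR (cell cycle genes homology region) and the CCAAT box bound by NF-Y.

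The 8 libraries held between 9516687 and 11797788 estimated counts. The 40 genes had between 37 and 4100 counts in any library, so none was at the counting floor and all 40 passed the filter on low counts in every comparison. The labelled cell type was checked against 7 melanocytic markers (MITF, SOX10, PMEL, MLANA, TYR, DCT and TYRP1). Their summed level lay between 11400 and 13300 CPM (counts scaled to the library total) in the 451Lu-R libraries, with none at 3 counts or fewer. In the 1205Lu-R libraries the sum was between 7.25 and 19.1 CPM and between 4 and 6 of the 7 were at 3 counts or fewer, with SOX10, TYR and TYRP1 at 0 in both DMSO libraries. Of 5 markers of undifferentiated melanoma (AXL, NGFR, EGFR, SOX9 and WNT5A), the sum was 8.02 and 8.07 CPM in 451Lu-R with DMSO, 387 and 379 CPM with corin, 1560 and 1570 CPM in 1205Lu-R with DMSO and 1120 CPM in both corin libraries. NGFR alone was at 355 and 348 CPM in 451Lu-R with corin. By edgeR (FDR under 0.05) all 5 rose in 451Lu-R, and in 1205Lu-R 3 fell and 1 rose. There NGFR rose from 5.60 and 6.12 CPM to 206 and 199 CPM, while AXL fell from 948 and 976 CPM to 480 and 471 CPM. Of 8 measured markers of leukocytes, endothelium and epithelium, between 3 and 5 were at 3 counts or fewer, among them PTPRC and KRT5 in every library, and the sum ran from 20.6 to 103 CPM, higher with corin than with DMSO in both lines. The part of these marker shifts in the results below was not tested.

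Because the mitotic genes are known for shared promoter elements, RefSeq promoter windows (GRCh38.p14, 250 bases before to 50 after each annotated start) were searched on both strands for the letters of the CHR (TTTGAA or TTCGAA), the CCAAT box (CCAAT) and an E2F element (TTTGGCGC, TTTCCCGC or TTTCGCGC). The table held 37 windows for 33 of the 40 genes. The windows of 6 genes with both a CHR and a CCAAT box and the largest mean fall over the 2 lines follow, written 5′ to 3′ on the strand of the gene with the matched letters in capitals. A box read on the opposite strand appears as ATTGG, and in CDCA8 the last letter of the CHR is also the first letter of a CCAAT box.
PLK1 (chr16:23678639-23678938, plus strand): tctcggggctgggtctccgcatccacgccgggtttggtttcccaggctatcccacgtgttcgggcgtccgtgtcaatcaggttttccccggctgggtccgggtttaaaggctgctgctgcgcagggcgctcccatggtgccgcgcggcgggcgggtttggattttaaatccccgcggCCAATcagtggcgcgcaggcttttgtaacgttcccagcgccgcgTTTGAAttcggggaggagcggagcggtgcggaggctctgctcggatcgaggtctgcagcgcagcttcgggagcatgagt
CENPA (chr2:26785806-26786105, plus strand): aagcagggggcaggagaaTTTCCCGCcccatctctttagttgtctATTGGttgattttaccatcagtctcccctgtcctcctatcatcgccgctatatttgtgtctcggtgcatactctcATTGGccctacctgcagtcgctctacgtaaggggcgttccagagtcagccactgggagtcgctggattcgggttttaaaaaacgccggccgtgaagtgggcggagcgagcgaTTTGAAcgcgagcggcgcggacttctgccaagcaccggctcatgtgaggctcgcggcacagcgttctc
CENPF (chr1:214602945-214603244, plus strand): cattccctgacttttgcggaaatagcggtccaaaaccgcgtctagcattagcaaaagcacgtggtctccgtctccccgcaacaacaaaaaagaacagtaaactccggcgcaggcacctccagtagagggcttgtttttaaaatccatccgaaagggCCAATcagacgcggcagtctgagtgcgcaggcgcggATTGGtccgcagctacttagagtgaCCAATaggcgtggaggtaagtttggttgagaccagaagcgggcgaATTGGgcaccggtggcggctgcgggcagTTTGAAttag
PRC1 (chr15:90994486-90994785, minus strand): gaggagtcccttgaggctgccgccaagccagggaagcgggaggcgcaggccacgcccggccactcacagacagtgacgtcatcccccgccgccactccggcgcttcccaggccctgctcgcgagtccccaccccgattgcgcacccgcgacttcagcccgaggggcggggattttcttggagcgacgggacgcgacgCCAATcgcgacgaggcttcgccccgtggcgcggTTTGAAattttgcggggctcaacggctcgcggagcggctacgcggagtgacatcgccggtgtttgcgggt
CDCA8 (chr1:37692266-37692565, plus strand): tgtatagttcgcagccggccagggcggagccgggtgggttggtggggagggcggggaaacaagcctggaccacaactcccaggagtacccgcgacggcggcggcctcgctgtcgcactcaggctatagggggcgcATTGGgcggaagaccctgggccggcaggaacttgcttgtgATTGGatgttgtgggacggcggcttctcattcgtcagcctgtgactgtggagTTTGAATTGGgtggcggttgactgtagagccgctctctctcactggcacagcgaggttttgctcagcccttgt
CCNB2 (chr15:59104896-59105195, plus strand): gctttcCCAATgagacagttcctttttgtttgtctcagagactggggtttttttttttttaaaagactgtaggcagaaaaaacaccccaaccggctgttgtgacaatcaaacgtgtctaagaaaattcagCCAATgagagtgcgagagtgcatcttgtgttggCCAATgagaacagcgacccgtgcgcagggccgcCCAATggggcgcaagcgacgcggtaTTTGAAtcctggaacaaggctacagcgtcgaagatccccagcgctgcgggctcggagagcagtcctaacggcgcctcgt
For comparison, KIF2C and CENPE were among the 3 genes whose windows held neither the CHR letters nor the CCAAT letters searched. The same search marked no letters in them, and other spellings of the elements were not searched.
KIF2C (chr1:44739587-44739886, plus strand): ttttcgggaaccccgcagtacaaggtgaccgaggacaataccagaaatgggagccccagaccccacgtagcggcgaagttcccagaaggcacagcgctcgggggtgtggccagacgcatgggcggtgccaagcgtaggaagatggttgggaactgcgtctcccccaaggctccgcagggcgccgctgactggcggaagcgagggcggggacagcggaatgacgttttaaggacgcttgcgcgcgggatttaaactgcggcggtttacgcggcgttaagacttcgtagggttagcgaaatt
CENPE (chr4:103198294-103198593, minus strand): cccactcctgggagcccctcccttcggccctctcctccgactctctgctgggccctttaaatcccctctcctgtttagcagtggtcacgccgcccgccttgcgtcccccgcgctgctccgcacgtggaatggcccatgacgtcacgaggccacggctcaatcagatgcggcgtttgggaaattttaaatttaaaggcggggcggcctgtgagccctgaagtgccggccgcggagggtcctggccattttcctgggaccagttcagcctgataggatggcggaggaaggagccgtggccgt

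The CHR letters were present in 23 of 37 windows (62.2%), against 16.4% of all 35116 windows in the table and 12.1% of the 17091 windows of genes tested in either line. The CCAAT box was present in 75.7% of the members' windows, 34.6% of all windows and 34.4% of those of tested genes. Both stood in the same window in 19 of 37 (51.4%), against 6.38% of all windows and 4.82% of those of tested genes. E2F letters were rarer, in 4 of the 37 windows of the members (10.8%), 2.74% of all windows and 3.93% of those of tested genes. Read on the strand of the gene alone, the CCAAT box was in 43.2% of the windows of these genes and 19.6% of all windows, and both elements together were in 29.7% and 2.06%. These are letter matches, not binding sites. The 18 genes with both elements in one window had a median log2 fold change with corin of -1.37 in 451Lu-R, or -0.53 in 1205Lu-R, and the 15 others with a window had -1.65 and -0.26. The lower median thus lay with the genes lacking the pair in 451Lu-R and with those holding it in 1205Lu-R. For the CHR alone it lay with the holders in both lines. The 22 genes with a CHR had -1.47 and -0.58, and the 11 without had -1.01 and -0.11. For the CCAAT box alone the 26 holders had -1.33 and -0.415, and the 7 others had -1.76 and -0.255. None of these differences was tested.

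**Figure D1:**
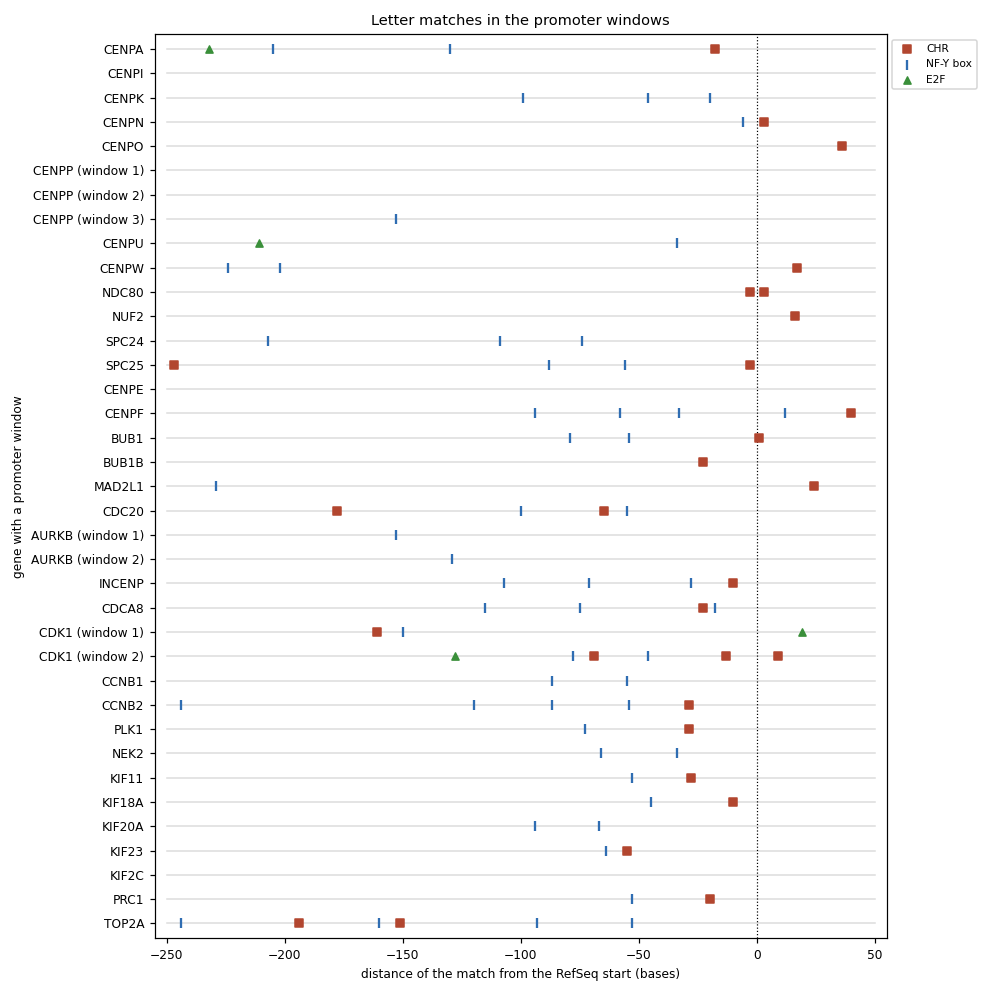
Letter matches in the 37 promoter windows of 33 kinetochore and mitosis genes, by distance in bases from the RefSeq start (dotted line); each row is a window and each symbol a match to the CHR, the CCAAT box (named NF-Y box) or the E2F element on either strand. Matches to the CHR stand in 23 of the 37 rows, many of them close to the start, and CENPI, CENPE and KIF2C have no match.

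The main question was how corin moved these genes in each line. In 451Lu-R, 39 of 40 genes fell with corin, none rose and CENPU was not called. In 1205Lu-R, 29 fell, 5 rose (CENPE, BUB1, AURKB, CDK1 and KIF20A) and 6 were not called (CENPP, CENPW, NUF2, CDC20, NEK2 and KIF18A). A call was an FDR under 0.05 in edgeR's quasi-likelihood test over all genes tested. By the same rule 38.6% of all genes tested fell and 41.3% rose in 451Lu-R, and 37.8% fell and 40.4% rose in 1205Lu-R. The summed level of the 40 genes was 3397 and 3418 CPM in the DMSO libraries of 451Lu-R and 1126 and 1118 CPM in its corin libraries, or 32.9% of the DMSO mean. In 1205Lu-R it was 4593 and 4600 CPM with DMSO and 3545 and 3581 CPM with corin, or 77.5%. In bulk RNA, fewer cells in mitosis and less RNA of these genes per cell cannot be told apart.

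The size of the fall separated the lines further. The median log2 fold change of the 40 genes was -1.55 in 451Lu-R, where that of all genes tested was 0.03, and -0.53 in 1205Lu-R, where it was also 0.03. At least 2-fold falls were called for 31 of the 40 genes in 451Lu-R and for 7 in 1205Lu-R, against 13.3% and 9.80% of all genes tested. Only 5 genes, CENPH, CENPM, SPC24, AURKA and PRC1, fell at least 2-fold in both lines, an overlap that was not counted over all genes. In 451Lu-R 7 of the 40 genes fell at least 4-fold (CENPA, KIF20A, CENPF, PLK1, CENPH, CCNB1 and AURKA). Of all 14530 genes tested in that line, 408 did. In 451Lu-R 19 of the 40 lay in the lowest 5% of all genes tested by log2 fold change, against 1, SPC24, in 1205Lu-R. Every corin library was below every DMSO library in CPM for all 40 genes in 451Lu-R and for 30 in 1205Lu-R. The share of all genes separated in this way was not counted, so these 2 numbers have no background.

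**Figure D2:**
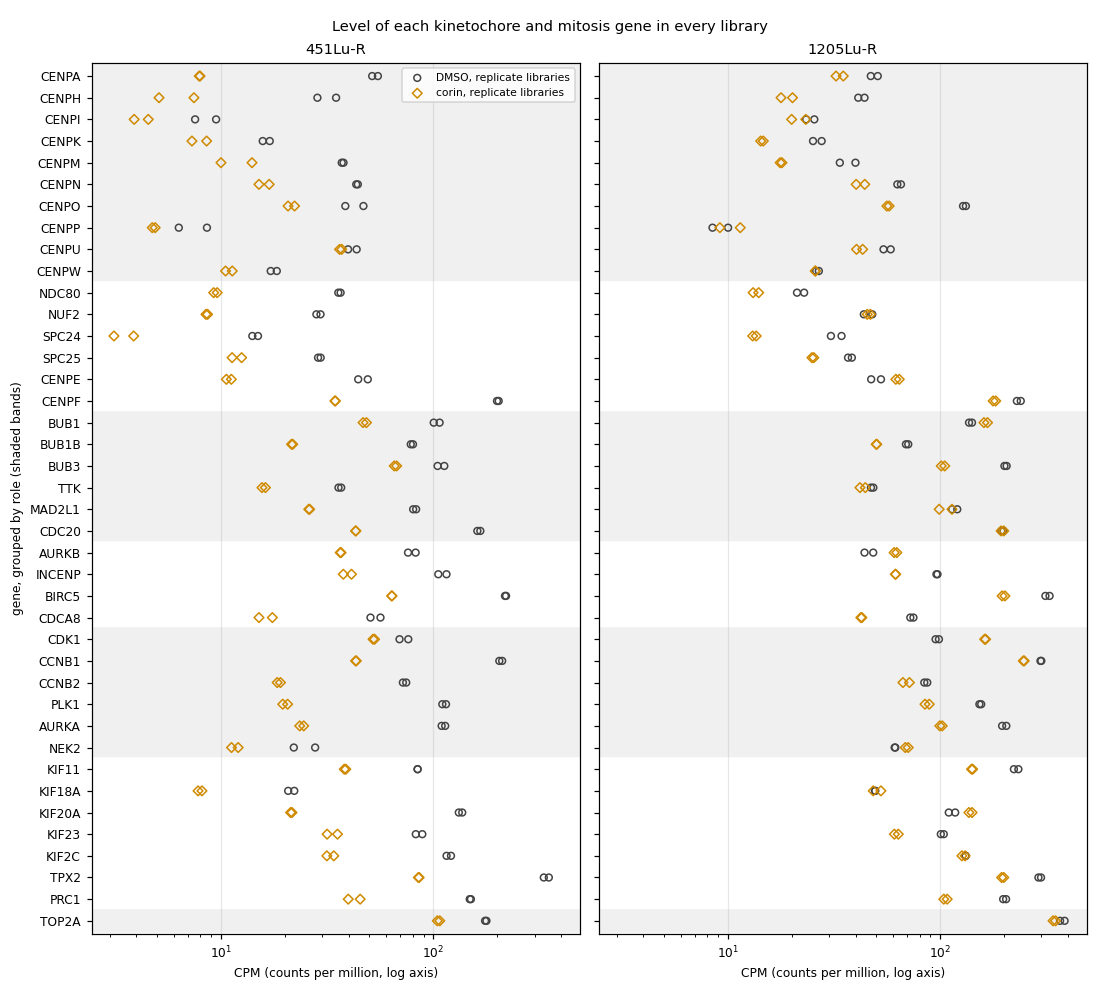
Level of each of the 40 genes in every library, in CPM on a log axis, for 451Lu-R (left) and 1205Lu-R (right); circles are the 2 DMSO libraries and diamonds the 2 corin libraries of a line, and bands group the genes by role. In 451Lu-R the corin libraries lie below the DMSO libraries for all 40 genes, and in 1205Lu-R for 30, with no count made over all genes.

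**Figure D3:**
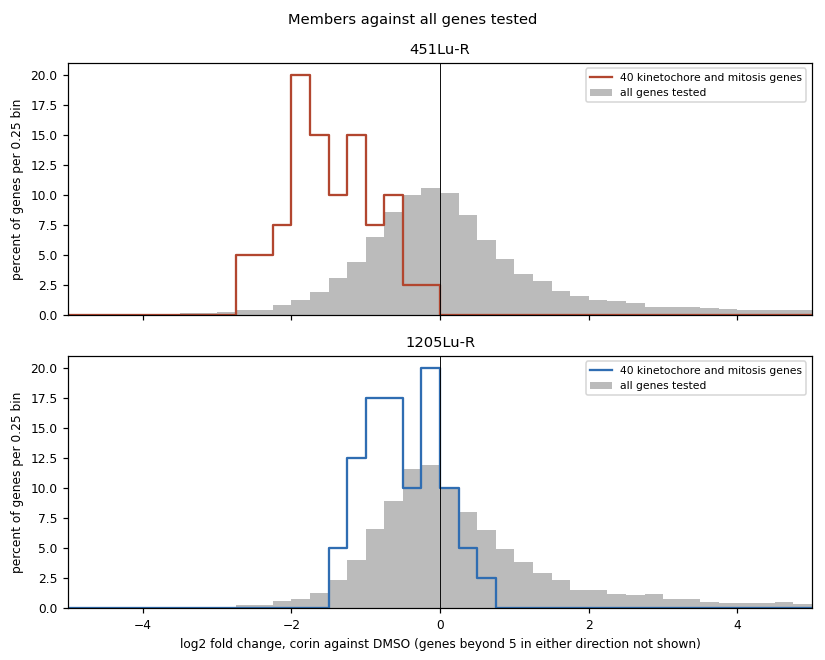
Log2 fold change with corin of all genes tested (grey bars) and of the 40 kinetochore and mitosis genes (line), as percent of genes per bin of 0.25, in each line. The 40 genes have a median of -1.55 in 451Lu-R, against -0.53 in 1205Lu-R, with all genes tested centred near 0.

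Of the 10 centromere genes, which encode CENP-A and members of the constitutive network bound to it, 9 fell in 451Lu-R, while 8 did in 1205Lu-R. CENPA, the histone variant that marks the centromere (ENSG00000115163, GRCh38 chr2:26764289-26801067), was at 51.5 and 54.8 CPM with DMSO and 7.97 and 7.90 CPM with corin in 451Lu-R. It fell by 2.64 on the log2 scale there (SE 0.09; adjusted P = 1.6e-15), the lowest value of the 40 genes. In 1205Lu-R its levels were 50.9 and 47.2 CPM with DMSO and 32.4 and 35.0 CPM with corin, a fall of 0.61 (SE 0.07; adjusted P = 8.9e-08). Under DMSO the lines differed in CENPA by -0.01 on the log2 scale, with a 95% interval from -0.14 to 0.12. CENPH, a subunit of the network beside CENPA, was at 34.9 and 28.5 CPM with DMSO and 7.46 and 5.11 CPM with corin in 451Lu-R, and at 41.2 and 44.1 CPM and 20.2 and 17.8 CPM in 1205Lu-R. Its log2 fold changes were -2.22 (SE 0.14) and -1.24 (SE 0.09).

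Not every centromere gene followed CENPA. CENPU, which helps recruit PLK1 to the kinetochore, was at 39.7 and 43.6 CPM with DMSO and 37.0 and 36.2 CPM with corin in 451Lu-R, a change of -0.08 (log2) whose 95% interval ran from -0.24 to 0.07 (adjusted P = 0.32). Scaled to library totals alone CENPU was called lower there, at -0.18. In 1205Lu-R it was at 58.5 and 54.1 CPM with DMSO and 43.2 and 40.4 CPM with corin, a fall of 0.51 (SE 0.07). CENPO, a subunit of the same subcomplex as CENPU, also fell more in 1205Lu-R, from 128 and 132 CPM to 56.1 and 57.6 CPM (-1.27, SE 0.05), than in 451Lu-R, from 38.5 and 46.9 CPM to 22.2 and 20.7 CPM (-0.88, SE 0.09). CENPO overlaps ADCY3 and PTRHD1 on the opposite strand, and whether the counting used strand is not stated. The other genes of the group had log2 fold changes from -1.56 (CENPM) to -0.52 (CENPP) in 451Lu-R and from -1.12 (CENPM) to 0.07 (CENPP) in 1205Lu-R. CENPP, at 11.4 CPM or less in every library and hosting ASPN, ECM2, OGN and OMD on the opposite strand, lost its call in 451Lu-R under DESeq2 (-0.51) and without DMSO replicate 2 (-0.30) or corin replicate 1 (-0.49). CENPI, with -0.90 in 451Lu-R and -0.25 in 1205Lu-R, lost the 1205Lu-R call under DESeq2, with library totals alone (-0.18) and without DMSO replicate 2 (-0.21) or corin replicate 2 (-0.14).

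The 6 outer kinetochore genes all fell at least 2-fold in 451Lu-R. In 1205Lu-R 4 fell, NUF2 was not called and CENPE rose. CENPF, a large coiled-coil protein of the outer corona (ENSG00000117724, chr1:214603185-214664574), was at 200 and 203 CPM with DMSO and 34.4 and 34.6 CPM with corin in 451Lu-R, and at 230 and 240 CPM and 178 and 183 CPM in 1205Lu-R. Its log2 fold changes were -2.44 (SE 0.05; adjusted P = 7.9e-20) and -0.45 (SE 0.04; adjusted P = 1.1e-10). SPC24, a subunit of the NDC80 complex, fell in both lines, from 14.1 and 14.9 CPM to 3.13 and 3.88 CPM in 451Lu-R (-1.95, SE 0.17) and from 34.3 and 30.6 CPM to 13.1 and 13.6 CPM in 1205Lu-R (-1.35, SE 0.10).

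CENPE, the kinesin that carries chromosomes to the metaphase plate (ENSG00000138778, chr4:103105349-103198445), went opposite ways in the lines. In 451Lu-R it was at 44.3 and 49.1 CPM with DMSO and 11.2 and 10.6 CPM with corin, a fall of 1.99 (SE 0.09; adjusted P = 1.5e-13). In 1205Lu-R it was at 52.7 and 47.4 CPM with DMSO and 61.9 and 64.2 CPM with corin, a rise of 0.26 (SE 0.06; adjusted P = 0.00055). The corin and DMSO libraries did not overlap in either line. NUF2, the partner of NDC80 in the complex, was at 29.4 and 28.1 CPM with DMSO and 8.65 and 8.50 CPM with corin in 451Lu-R (-1.65, SE 0.11). In 1205Lu-R its corin libraries, at 45.4 and 47.0 CPM, lay between its DMSO libraries at 43.7 and 47.9 CPM (-0.06, 95% interval -0.20 to 0.08). NDC80 and SPC25 fell by 1.84 and 1.18 in 451Lu-R and by 0.78 and 0.65 in 1205Lu-R.

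All 6 checkpoint genes fell in 451Lu-R. Of these, 4 fell in 1205Lu-R, CDC20 was not called and BUB1 rose. BUB1B, which encodes BUBR1 of the mitotic checkpoint complex, was at 80.2 and 78.3 CPM with DMSO and 21.8 and 21.5 CPM with corin in 451Lu-R, and at 69.0 and 70.8 CPM and 50.3 and 50.03 CPM in 1205Lu-R (log2 fold changes of -1.77, SE 0.07, and -0.55, SE 0.05). Its counts may be shared with the readthrough gene BUB1B-PAK6. CDC20, the activator of the anaphase-promoting complex that the checkpoint restrains, fell from 167 and 161 CPM to 43.1 and 43.2 CPM in 451Lu-R (-1.83, SE 0.05). In 1205Lu-R it was at 199 and 194 CPM with DMSO and 194 and 200 CPM with corin (-0.07, SE 0.03; adjusted P = 0.063). The 1205Lu-R value passed the threshold with no filter on low counts (-0.12), in 1 joint fit of all 8 libraries (-0.09) and without DMSO replicate 2 (-0.11) or corin replicate 2 (-0.10), and turned to 0.00 when libraries were scaled to their totals alone.

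BUB1, the kinase that recruits checkpoint proteins to the kinetochore, fell from 100 and 107 CPM to 46.7 and 48.5 CPM in 451Lu-R (-1.03, SE 0.06) and rose from 137 and 141 CPM to 167 and 161 CPM in 1205Lu-R (0.16, SE 0.04; adjusted P = 0.00049). BUB3, the WD-repeat partner of BUB1 and BUBR1 that also has uses outside mitosis, went further down in 1205Lu-R. It was at 113 and 105 CPM with DMSO and 67.2 and 65.5 CPM with corin in 451Lu-R (-0.61, SE 0.05), and at 201 and 206 CPM and 105 and 101 CPM in 1205Lu-R (-1.05, SE 0.04). MAD2L1 and TTK, which encode the checkpoint protein MAD2 and the kinase MPS1, fell by 1.55 and 1.09 in 451Lu-R and by 0.21 and 0.22 in 1205Lu-R. The TTK call in 1205Lu-R was lost under DESeq2 (-0.22).

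The 4 genes of the chromosomal passenger complex all fell at least 2-fold in 451Lu-R, and in 1205Lu-R 3 fell while AURKB rose. BIRC5, which encodes survivin (ENSG00000089685, chr17:78214186-78225636), was at 218 and 220 CPM with DMSO and 63.9 and 63.7 CPM with corin in 451Lu-R (-1.68, SE 0.04), and at 328 and 313 CPM and 202 and 196 CPM in 1205Lu-R (-0.76, SE 0.03). CDCA8, which encodes borealin, fell from 56.4 and 50.6 CPM to 17.5 and 15.1 CPM in 451Lu-R (-1.61, SE 0.09) and from 74.9 and 72.4 CPM to 42.4 and 42.8 CPM in 1205Lu-R (-0.86, SE 0.06). INCENP, the scaffold, fell by 1.39 and 0.72. AURKB, the kinase of the complex, departed from its partners in 1205Lu-R. It was at 76.0 and 82.6 CPM with DMSO and 36.5 and 36.8 CPM with corin in 451Lu-R (-1.01, SE 0.07), and at 48.4 and 44.1 CPM and 60.7 and 62.5 CPM in 1205Lu-R, a rise of 0.34 (SE 0.06; adjusted P = 3.2e-05).

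The 6 genes of mitotic entry kinases and cyclins all fell in 451Lu-R, whereas in 1205Lu-R 4 fell, NEK2 was not called and CDK1 rose. PLK1, the polo-like kinase of spindle poles and kinetochores (ENSG00000166851, chr16:23677656-23690367), was at 115 and 110 CPM with DMSO and 19.5 and 20.6 CPM with corin in 451Lu-R, a fall of 2.39 (SE 0.06; adjusted P = 2.0e-17). In 1205Lu-R it was at 153 and 156 CPM with DMSO and 84.9 and 88.9 CPM with corin, a fall of 0.90 (SE 0.04; adjusted P = 6.9e-15). PLK1 overlaps ERN2 on the opposite strand. AURKA, the Aurora kinase of the spindle poles, fell at least 2-fold in both lines, from 114 and 110 CPM to 23.5 and 24.5 CPM in 451Lu-R (-2.12, SE 0.06) and from 196 and 205 CPM to 99.7 and 102 CPM in 1205Lu-R (-1.06, SE 0.04).

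CDK1, the kinase that starts mitosis, and its cyclins responded unequally. CDK1 (ENSG00000170312, chr10:60778331-60794852) was at 69.3 and 76.3 CPM with DMSO and 52.0 and 52.9 CPM with corin in 451Lu-R, a fall of 0.37 (SE 0.06; adjusted P = 1.8e-05) that was the smallest of the 39 called. In 1205Lu-R it rose from 95.2 and 98.8 CPM to 164 and 162 CPM (0.68, SE 0.04; adjusted P = 5.7e-13). The cyclins CCNB1 and CCNB2 fell by 2.17 (SE 0.04) and 1.87 (SE 0.07) in 451Lu-R and by 0.34 (SE 0.03) and 0.38 (SE 0.05) in 1205Lu-R. NEK2, a centrosome kinase, fell by 1.01 (SE 0.12) in 451Lu-R. Its value of 0.11 in 1205Lu-R missed the threshold (adjusted P = 0.051) and passed it with RLE size factors (0.12), with library totals alone (0.19) and with a filter of at least 1 CPM on the mean (0.13).

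Of the 7 spindle and midzone genes, all fell at least 2-fold in 451Lu-R, and in 1205Lu-R 5 fell, KIF18A was not called and KIF20A rose. KIF20A, the kinesin MKLP2 that brings the passenger complex to the midzone (ENSG00000112984, chr5:138178719-138187723), was at 137 and 132 CPM with DMSO and 21.3 and 21.6 CPM with corin in 451Lu-R, a fall of 2.55 (SE 0.06; adjusted P = 1.7e-18). In 1205Lu-R it was at 110 and 118 CPM with DMSO and 137 and 142 CPM with corin, a rise of 0.22 (SE 0.04; adjusted P = 6.3e-05). KIF20A overlaps CDC23 and BRD8 on the opposite strand. CDC23 fell in both lines, by 1.07 (SE 0.08) and 0.78 (SE 0.07).

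PRC1, which bundles midzone microtubules, fell at least 2-fold in both lines, from 148 and 150 CPM to 45.3 and 39.8 CPM in 451Lu-R (-1.71, SE 0.05) and from 205 and 198 CPM to 108 and 104 CPM in 1205Lu-R (2.001-fold lower, SE 0.04 on the log2 scale). KIF18A, a kinesin that limits chromosome oscillation, fell from 20.7 and 22.1 CPM to 8.14 and 7.80 CPM in 451Lu-R (-1.32, SE 0.12) and was at 49.3 and 49.5 CPM with DMSO and 48.4 and 52.6 CPM with corin in 1205Lu-R (-0.04, 95% interval -0.17 to 0.09). TPX2, KIF2C, KIF23 and KIF11 fell by 1.90, 1.76, 1.26 and 1.04 in 451Lu-R and by 0.65, 0.11, 0.79 and 0.76 in 1205Lu-R. The KIF2C call in 1205Lu-R was lost under DESeq2 (-0.10), with library totals alone (-0.03) and without corin replicate 2 (-0.08). TOP2A, the topoisomerase that untangles sister chromatids, was at 178 and 175 CPM with DMSO and 107 and 104 CPM with corin in 451Lu-R (-0.64, SE 0.04), and at 367 and 386 CPM and 340 and 350 CPM in 1205Lu-R (-0.20, SE 0.03).

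**Figure D4:**
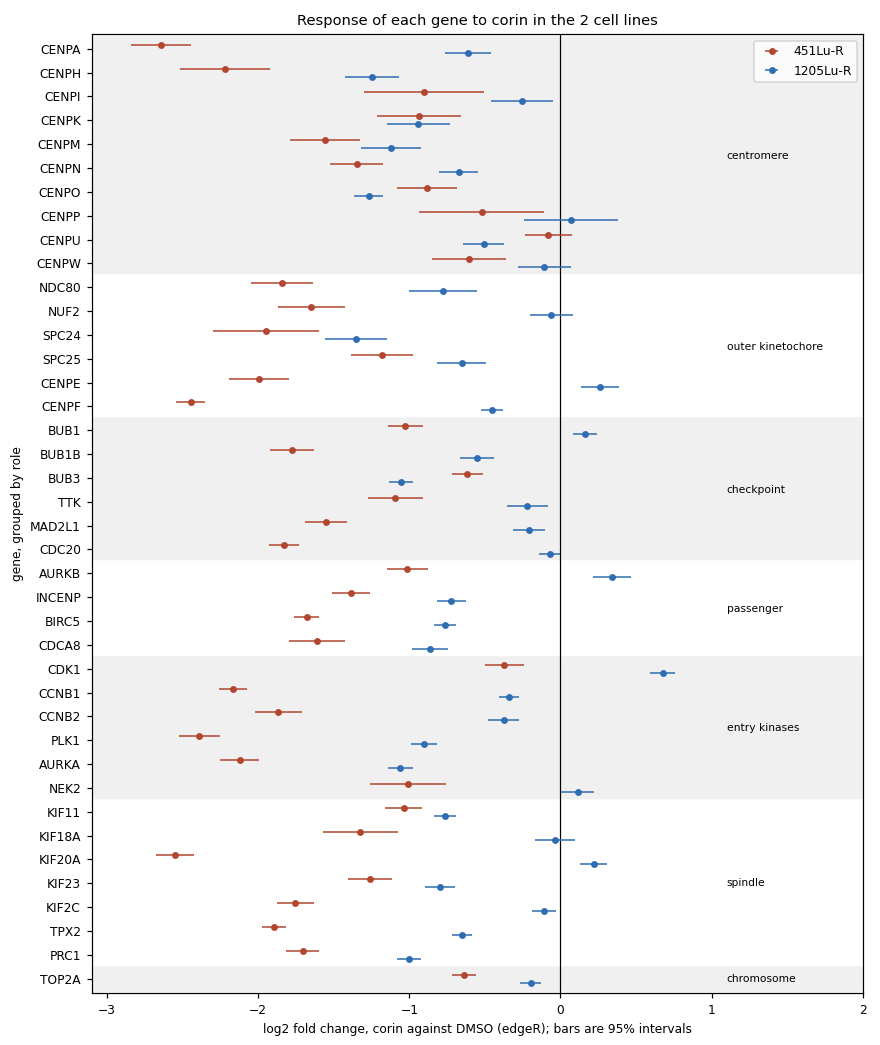
Log2 fold change of each of the 40 genes with corin against DMSO in 451Lu-R (red) and 1205Lu-R (blue), from edgeR; bars are 95% intervals and bands group the genes by role. The red points lie between -2.64 and -0.08 and the blue points between -1.35 and 0.68.

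An interaction term fitted over the 8 libraries asked whether the lines differed in response. The response differed for 38 of 40 genes. It was less negative or more positive in 1205Lu-R for 35 and the reverse for 3, BUB3, CENPU and CENPO, while CENPK and CENPP were not called. Over all genes tested, 22.6% were called higher in response in 1205Lu-R and 27.1% lower. The median difference of the 40 genes was 0.97 on the log2 scale and that of all genes was -0.01. An estimate of at least 1 was called for 20 of the 40 genes and for 1500 of the 16062 genes tested. KIF20A had the largest estimate, 2.73 (SE 0.08; adjusted P = 1.7e-17), followed by CENPE with 2.22 (SE 0.12) and CENPA with 1.99 (SE 0.12). At the other end, BUB3 had -0.48 (SE 0.07), CENPU -0.46 (SE 0.10) and CENPO -0.42 (SE 0.11). With libraries scaled to their totals alone, the median of all genes moved to 0.20 and the CENPO estimate of -0.21 was no longer called. By role, the median estimate was 0.51 for centromere genes, 1.29 for the outer kinetochore, 1.17 for the checkpoint, 0.79 for the passenger complex, 1.27 for the entry kinases and 1.20 for the spindle. CENPI (0.61), CENPM (0.40) and SPC24 (0.56) lost the call under DESeq2 and when certain single libraries were left out. CENPI lost it without DMSO replicate 1 or corin replicate 2 of 451Lu-R, or DMSO replicate 1 or corin replicate 1 of 1205Lu-R, at 0.42 to 0.54. CENPM did without either DMSO library or corin replicate 1 of 451Lu-R, or DMSO replicate 2 or either corin library of 1205Lu-R, at 0.18 to 0.43. SPC24 did without DMSO replicate 2 or corin replicate 1 of 451Lu-R, or DMSO replicate 2 or corin replicate 2 of 1205Lu-R, at 0.42 to 0.55. CENPW (0.46) lost the call under DESeq2, and CENPP (0.55) gained one with library totals alone (0.76) and without DMSO replicate 1 of 451Lu-R (0.75) or corin replicate 2 of 1205Lu-R (0.73).

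**Figure D5:**
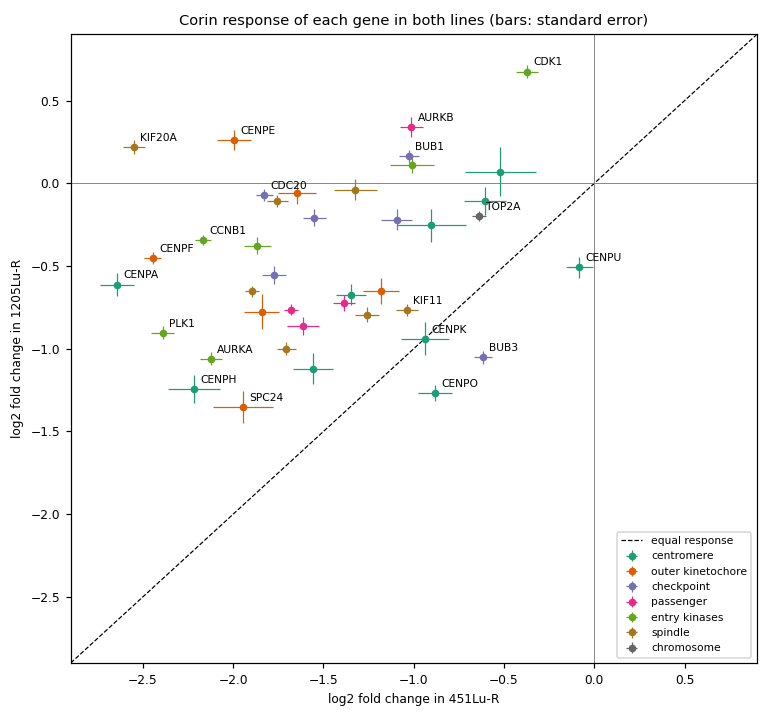
Log2 fold change with corin in 1205Lu-R against that in 451Lu-R for the 40 genes, coloured by role; bars are standard errors and the dashed line marks an equal response. Most points lie above the line, KIF20A and CENPE far above it, and BUB3, CENPU and CENPO lie below it.

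The lines were also compared under DMSO, with the same DMSO libraries that serve as controls above. Levels were higher in 1205Lu-R for 32 of the 40 genes, lower for 4 (NDC80, AURKB, KIF20A and TPX2) and not called for CENPA, CENPM, BUB1B and INCENP. Over all genes tested, 41.0% were higher and 41.5% lower in 1205Lu-R. The median difference of the members was 0.53 on the log2 scale, against -0.01 for all genes. Levels at least 2-fold higher were called for 8 of the 40 genes and for 2759 of the 14104 genes tested, a similar share. CENPO (1.72, SE 0.06), CENPI (1.62, SE 0.12) and KIF11 (1.54, SE 0.04) had the largest differences. NDC80 (-0.61, SE 0.08) and AURKB (-0.67, SE 0.06) were the lowest. The lower calls of KIF20A (-0.14) and TPX2 (-0.10) were lost under DESeq2, at -0.12 and -0.09, and without DMSO replicate 1 of 1205Lu-R, at -0.08 for each. The TPX2 call was also lost without DMSO replicate 2 of 451Lu-R, at -0.07. The higher call of CENPE (0.21) was lost under DESeq2, with library totals alone (0.10) and without DMSO replicate 1 of 451Lu-R (0.12) or of 1205Lu-R (0.13), and so was that of CENPP (0.43) under the same settings, at 0.20 and 0.30 without those libraries. With library totals alone, BUB1B (-0.18) and INCENP (-0.20) were called lower as well. INCENP (-0.09) was also called lower without DMSO replicate 2 of 451Lu-R (-0.15), and CENPM (0.09) higher without DMSO replicate 2 of 1205Lu-R (0.21). With corin, the mean level in CPM was higher in 1205Lu-R than in 451Lu-R for all 40 genes, a description with no test. The share of all genes higher in this way was not counted, so this number has no background.

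Levels between genes were compared per length, as TPM from merged exon length. With DMSO, TPX2 (376 ± 14 TPM, SD, n = 2), CCNB1 (340 ± 6.6) and CDC20 (324 ± 8.0) stood highest in 451Lu-R, and TPX2 and CCNB1 traded places when the longest coding transcript gave the length. In 1205Lu-R with DMSO the order was CCNB1 (541 ± 2.6 TPM), CDC20 (431 ± 5.9), BIRC5 (371 ± 11) and TPX2 (361 ± 7.9), of which BIRC5 and TPX2 lay within their SDs of each other, and by the coding transcript BIRC5 (276 TPM) stood above CDC20 (258 TPM) and AURKA (208 TPM) above TPX2 (191 TPM). CENPP, CENPI and CENPE were among the 4 lowest in every group but one. In that group, 1205Lu-R with corin, the 4 lowest were NDC80, CENPK, CENPI and CENPP. CENPP was lowest throughout, from 1.90 ± 0.043 TPM in 451Lu-R with corin to 4.66 ± 0.73 TPM in 1205Lu-R with corin.

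Other genes of the cell cycle were taken from 4 lists. Of 76 other genes of mitosis, 71 fell and 2 rose in 451Lu-R and 61 fell and 9 rose in 1205Lu-R, with medians of -1.29 and -0.57 and a response higher in 1205Lu-R for 56 and lower for 6. HMMR, a spindle protein, fell from 80.1 and 84.5 CPM to 9.83 and 8.60 CPM in 451Lu-R (-3.05, SE 0.09). In 1205Lu-R it rose from 91.5 and 92.2 CPM to 103.2 and 106.5 CPM (0.12, SE 0.04; edgeR adjusted P = 0.016), and it overlaps HMMR-AS1 on the opposite strand. CDCA3 fell by 2.41 (SE 0.15) in 451Lu-R and 1.45 (SE 0.07) in 1205Lu-R. PKMYT1, the inhibitory kinase of CDK1, fell by 1.62 (SE 0.10) in 451Lu-R and by 1.77 (SE 0.06) in 1205Lu-R. UBE2S, the ubiquitin-chain enzyme of the anaphase-promoting complex, was called higher in both lines, by 0.12 (SE 0.03) and 0.66 (SE 0.02). In 451Lu-R its libraries overlapped in CPM, at 219 and 215 with DMSO and 223 and 218 with corin. CKAP2 rose in both as well, by 0.50 (SE 0.04) and 0.29 (SE 0.04). CDCA2 fell by 0.96 (SE 0.07) in 451Lu-R and rose by 0.86 (SE 0.04) in 1205Lu-R. Among 14 subunits of the anaphase-promoting complex, 12 fell and 2 rose in 451Lu-R and 10 fell and 2 rose in 1205Lu-R, with medians of -0.58 and -0.47.

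The third list held 29 replication genes. Of these, 24 fell and 1 rose in 451Lu-R and 27 fell and 1 rose in 1205Lu-R, and the medians were -1.10 and -1.09. The response was higher in 1205Lu-R for 6 (20.7%) and lower for 10 (34.5%), against 22.6% and 27.1% of all genes tested. MCM5, a subunit of the replicative helicase, fell from 176 and 182 CPM to 23.6 and 25.6 CPM in 1205Lu-R (-2.93, SE 0.05) and by 1.77 (SE 0.05) in 451Lu-R. MCM7 fell from 274 and 273 CPM to 62.3 and 65.9 CPM in 451Lu-R (-1.995, SE 0.04) and by 2.14 (SE 0.03) in 1205Lu-R. No test compared the lists with each other.

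Of 16 genes for the regulators of late cell cycle transcription, 13 fell and 1 rose in 451Lu-R and 12 fell and 3 rose in 1205Lu-R. FOXM1, the forkhead factor of mitotic genes, was at 173 and 180 CPM with DMSO and 42.0 and 43.8 CPM with corin in 451Lu-R (-1.94, SE 0.05), and at 637 CPM in both DMSO libraries and 293 and 290 CPM with corin in 1205Lu-R (-1.20, SE 0.03). Its response differed between the lines by 0.70 (SE 0.06; adjusted P = 3.5e-09). MYBL2, which encodes B-MYB, fell by 1.55 and 1.34, and the MuvB subunit LIN9 by 1.82 and 1.32, in 451Lu-R and 1205Lu-R, and neither difference between the lines was called (0.17, SE 0.08, and 0.46, SE 0.29). The other MuvB genes were LIN52 (-1.03 and -1.10), LIN54 (-0.74 and -0.38) and RBBP4 (-1.09 and -1.01), which fell in both lines, and LIN37, not called at 0.03 and -0.19. Of the partners that make the repressive form of the complex, E2F4 fell by 1.74 and 0.87, TFDP1 by 0.49 in each line, TFDP2 by 1.38 and 1.14, and RBL1 by 0.34 and 0.97. RBL2 fell by 1.09 (SE 0.08) in 451Lu-R and rose by 0.20 (SE 0.08) in 1205Lu-R, and E2F5 was not called at -0.10 in 451Lu-R and rose by 1.46 (SE 0.16) in 1205Lu-R. Of the NF-Y subunits, NFYA rose by 0.61 (SE 0.07) and 0.36 (SE 0.06), and NFYB and NFYC fell in both lines, by 0.25 and 0.50 and by 0.75 and 0.18.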

How the data were processed

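PolyA RNA was sequenced from 2 BRAFi-resistant melanoma lines. The authors deposited estimated counts (expected counts) per gene for 8 libraries, made from reads trimmed by Trimmomatic with Salmon and the GENCODE v32 transcripts and not normalized, and tool versions are not given in the sources used here. The remaining deposited tables were not used. They hold the authors' own log2 fold changes and adjusted P values for corin with PLX4032.

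Counts were rounded and named with GENCODE 44, of the same build (GRCh38), which named 34052 of 34228 genes. In R 4.3.3, edgeR 4.0.16 (filterByExpr, TMM, glmQLFit, glmQLFTest, 2-sided, Benjamini-Hochberg over all genes tested) compared corin with DMSO within each line and the lines under DMSO, and an interaction term on 8 libraries compared the responses. Standard errors are the size of the log2 fold change over the root of F. CPM uses library totals, while fold changes also use the TMM factors (0.96 to 1.04), so CPM and a small fold change can part. The chi-square of counts between replicates was 1.34 to 1.41 times its degrees of freedom. Transcripts read with unknown strand setting leave 18 members that overlap an opposite-strand gene uncertain.

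The members, roles and gene lists were chosen with earlier results of these data known. Named with values per library are, in each role, the 2 members with the largest and the 1 with the smallest mean change, those called in opposite directions or risen, and the 3 largest interaction estimates in each direction. From other lists come at most 3 genes per direction and line whose mean reached 1 CPM, and every regulator. Alternatives were DESeq2 1.42.0, RLE factors, library totals, no filter, at least 1 CPM, a replicate block, 1 joint fit, fold thresholds and leaving out each library.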

Additional observations from a re-analysis of the deposited data

Results flagged for a closer look

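For 38 of the 40 genes the response to corin in 1205Lu-R minus that in 451Lu-R differed from 0 by the interaction term (edgeR, FDR under 0.05 over all genes tested), and the values follow on the log2 scale. A positive value is a smaller fall, or a rise against a fall, in 1205Lu-R. Among the centromere genes the difference was CENPA 1.99, CENPH 0.94, CENPN 0.64, CENPI 0.61, CENPW 0.46, CENPM 0.40, CENPO -0.42 and CENPU -0.46. In the outer kinetochore it was CENPE 2.22, CENPF 1.95, NUF2 1.55, NDC80 1.03, SPC24 0.56 and SPC25 0.49. The checkpoint genes had CDC20 1.72, MAD2L1 1.30, BUB1B 1.18, BUB1 1.15, TTK 0.84 and BUB3 -0.48. For the passenger complex the estimates were AURKB 1.32, BIRC5 0.88, CDCA8 0.71 and INCENP 0.62. Entry kinases and cyclins gave CCNB1 1.79, CCNB2 1.45, PLK1 1.45, NEK2 1.08, AURKA 1.02 and CDK1 1.01. Among spindle and midzone genes they were KIF20A 2.73, KIF2C 1.61, KIF18A 1.25, TPX2 1.21, PRC1 0.67, KIF23 0.43 and KIF11 0.24. TOP2A had 0.40. The cause of these differences was not tested.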

How the results depend on the processing

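The numbers of genes that fell (39) in 451Lu-R and that fell (29) and rose (5) in 1205Lu-R stayed within 1.5 times their values under DESeq2, RLE factors, library totals, both filters, the replicate block, 1 joint fit and each library left out, at 38 to 40, 26 to 30 and 5 to 6. The 38 responses that differed came to 34 to 38, and the 32 genes higher in 1205Lu-R under DMSO to 30 to 33. Only fold thresholds moved them. At 2-fold, 7 fell and 0 rose in 1205Lu-R, 20 responses differed between the lines, and under DMSO 0 genes were lower and 8 higher in 1205Lu-R. At 4-fold with an FDR under 0.001 these were 0, 0, 2, 0 and 0, and 7 fell in 451Lu-R. Of the 4 genes lower in 1205Lu-R under DMSO, DESeq2 called 2, library totals gave 6, and leaving out a library gave 2 to 4 (2 without DMSO replicate 1 of 1205Lu-R). The median log2 fold change was -1.65 in 451Lu-R, or -0.46 in 1205Lu-R, with library totals, and -0.58 in 1205Lu-R with no filter, and ran from -0.57 (without its DMSO replicate 2) to -0.51 in 1205Lu-R with a library left out. Library totals moved the median of all genes from -0.01 to 0.20 for the interaction and to -0.12 for the lines under DMSO. The causes were not tested.

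Replicate numbers did not pair the libraries (r of same-numbered deviations -0.031 in 451Lu-R, 0.009 in 1205Lu-R), and the replicate block left the counts at 39 and 29 fallen, 5 risen, 38 different, and 4 lower and 32 higher under DMSO.

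Direction turned only for members that were not called. In 1205Lu-R with library totals, NUF2 went to 0.015, CDC20 to 0.0035 and KIF18A to 0.037, and with a library left out CENPP ran from -0.088 to 0.23 and KIF18A from -0.11 to 0.016. The CENPK interaction went to 0.17 with library totals and from -0.13 to 0.11 with a library left out. Under DMSO, CENPA went to 0.00042 with DESeq2, 0.0029 with RLE factors, 0.0087 in 1 joint fit and -0.065 to 0.055 with a library left out, and CENPM to -0.020 with library totals and -0.040 to 0.21 with a library left out. Of the other values of single members, 1805 kept direction and call, 43 lost the call and 15 gained it. With 2 libraries per group, and 1 where a library was left out, that lone library is assumed to vary like the rest. Levels per length moved by more than 1 SD for 144 of 160 member and group values when the coding transcript gave the length.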
